A study of Oryza sativa Japonica Group and Oryza sativa Indica Group with 16 samples.

Results

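Transcript signals of the upland rice IRAT109 and the paddy rice ZS97 were compared in flag leaves under severe drought. The comparison covers the 4 arrays of stage D3, 2 per genotype, of 16 arrays in the series, and all 57381 probe sets of the rice array. It was set beside the same comparison before stress (stage D0, 4 arrays), which shows the differences already present in watered leaves. The series has no watered leaves from the later stages, so drought and the time since D0 cannot be told apart. IRAT109 is labelled a drought-resistant japonica cultivar and ZS97 is the drought-sensitive indica parent. Plants were grown in PVC pipes and flag leaves were taken at the reproductive stage before flowering. The relative water content of the sampled leaves was 94% to 95% at D0 and 65% to 69% at D3 in both genotypes, with 83% to 88% at D1 and 74% to 78% at D2 between them. Each group had 2 arrays, which the labels call biological replicates, and each genotype stands for its subspecies and its cultivation type at once, so these cannot be told apart.

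As leaves dry, abscisic acid accumulates and turns on genes for dehydrins and other protective proteins, while stomata close and photosynthesis declines. Prolonged drought also brings on senescence, in which chlorophyll is broken down and carbon and nitrogen are moved out of the leaf. Rice leaves further make diterpenoid phytoalexins, antimicrobial compounds built from plastid isoprenoids, in response to pathogens and other stresses.

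Values are the deposited signal intensities, and differences are IRAT109 minus ZS97 on the log2 scale of intensity plus 16. The median intensity of the 8 arrays of D0 and D3 lay between 36.9 and 38.8, and 27.9% to 29.1% of probe sets lay below 16. Replicate arrays correlated at 0.997 to 0.998. None of 123 control probe sets was called between the genotypes at D3. At D0 some controls lay lower in IRAT109, such as AFFX-DapX-5_at (-0.647, and -0.004 at D3) and AFFX-r2-Bs-thr-5_s_at (-0.599, and 0.035 at D3). The control AFFX-OS-18SrRNA_s_at went from -0.865 at D0 to 0.512 at D3. Others differed little at D0, such as AFFX-BioC-5_at (-0.038). Whether these shifts had a part in the calls below was not tested. The 14 probe sets of green leaf markers summed to 33194 and 34475 in the IRAT109 arrays at D3 and to 24039 and 24148 in those of ZS97, after 66986 to 67954 and 61206 to 63544 at D0. Markers of anthers summed to 78.4 to 85.9 over 6 probe sets at D3 and those of meristems to 65.4 to 73.1 over 4. Markers of dividing cells summed to 447.1 and 460.1 in IRAT109 and 626.3 and 644.4 in ZS97 at D3, with 1 of 9 probe sets called. Endosperm markers summed to 1023.3 and 1025.3 in IRAT109 and 1359.8 and 1385.3 in ZS97 over 15 probe sets, and root markers to 121.3 and 134.4 and 189.0 and 214.8 over 2, with 0 called. Whether these marker levels had a part in the differences below was not tested. Fewer cells of a type and less RNA per cell cannot be told apart in whole leaves. A difference in sequence under the probes and a difference in RNA level cannot be told apart between the genotypes either.

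At D3, 1689 probe sets were higher in IRAT109 (2.94% of all tested) and 1527 were higher in ZS97 (2.66%), which is 5.6% together. A call needed a difference over 2-fold and a limma adjusted p under 0.05, by the Benjamini-Hochberg method across the array. The D3 arrays of IRAT109 lay above both of ZS97 in 27.8% of all probe sets and below both in 31.5%, so a lack of overlap alone is common here. The order of the directions turned with each array centred on its median (1616 and 1639), with a 1.5-fold threshold (3161 and 3994) and with 1 probe set per gene (726 and 774). All probe sets past 2-fold at D3 also passed the adjusted p, whose largest value among them was 0.035, so the fold threshold alone set these counts. Rank products picked the same 1689 and 1527 probe sets, again with every probe set past 2-fold under the p threshold. The match between the methods is therefore a property of the fold threshold. At D0, 1761 probe sets were higher in IRAT109 (3.07%) and 1032 in ZS97 (1.8%), together 4.87%. The change of the difference from D0 to D3, tested as an interaction, was called for 745 probe sets toward IRAT109 (1.3%) and 1213 toward ZS97 (2.11%), together 3.41%.

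Sorted by these tests, differences that were already there before drought and had no called change formed the most numerous class. Of the 3216 probe sets called at D3, 1405 (43.7%) were called the same way at D0 with no called change and are termed constant. Another 727 (22.6%) were not called at D0 and changed toward their D3 difference, and are termed drought-made. That name covers any change from D0 to D3, whether by drought or by time. The difference widened for 133 probe sets, narrowed for 131 and reversed for 27. The other 793 (24.7%) were not called at D0 and had no called change, so they are unresolved. Constant and unresolved differences may still have changed by less than 2-fold. Of the probe sets higher in IRAT109, 52.7% were constant (1.55% of all tested) and 18.1% drought-made (0.532%). Of those higher in ZS97, 33.7% were constant (0.898%) and 27.6% drought-made (0.735%). A further 555 probe sets had a D0 difference that was lost, 365 of them higher in IRAT109 at D0 and 190 higher in ZS97. Across all probe sets, the D0 and D3 differences correlated at 0.73, a description over probe sets of 8 arrays and not over independent replicates.

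**Figure D1:**
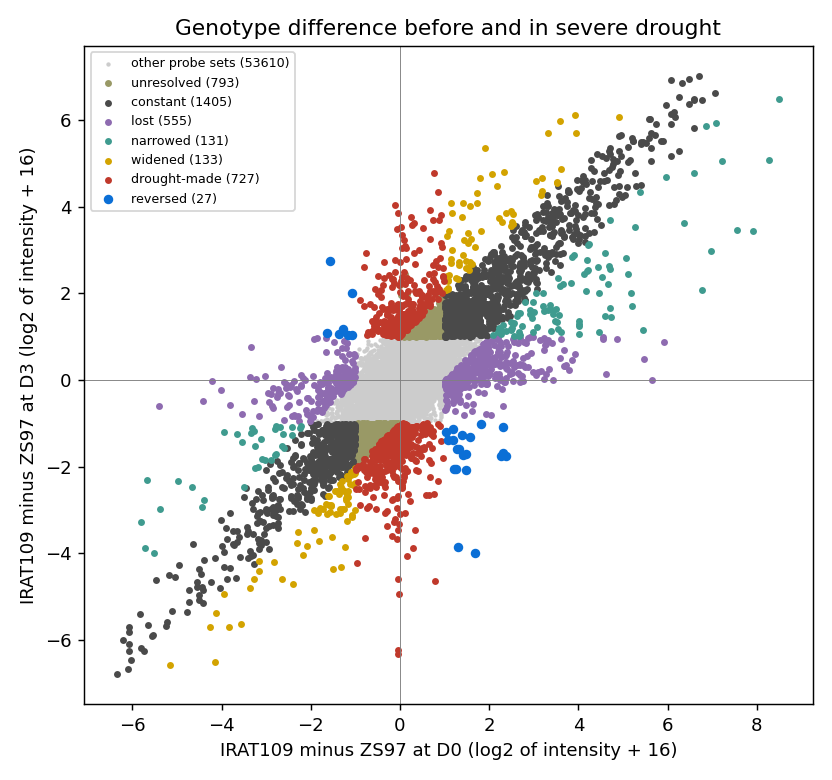
Each point is 1 of 57381 probe sets, with the genotype difference (IRAT109 minus ZS97, log2 of intensity plus 16) at D0 on the horizontal axis and at D3 on the vertical axis, coloured by class. The 1405 constant probe sets lie along the diagonal, the 727 drought-made ones above and below the centre, and the 27 reversed ones in the upper left and lower right.

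**Figure D2:**
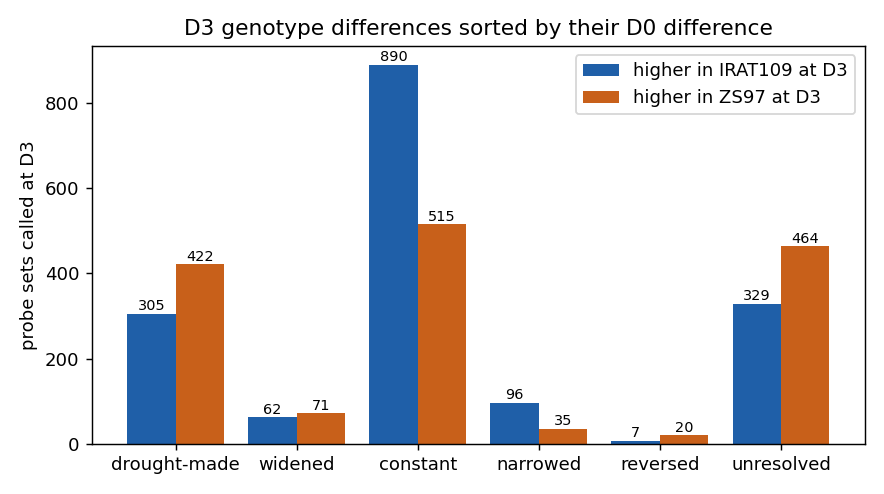
Bars give the number of probe sets called at D3 in each class, in blue where IRAT109 was higher and in orange where ZS97 was higher. Constant differences number 890 toward IRAT109 and 515 toward ZS97, and drought-made ones 305 and 422.

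Drought-made differences toward either genotype arose from different changes over time. Of the 305 probe sets higher in IRAT109, 111 (36.4%) rose from D0 to D3 in IRAT109 and were not called in ZS97, and 74 (24.3%) fell in ZS97 with no call in IRAT109. Over all probe sets 3.42% rose and 4.78% fell in IRAT109, and 4.23% rose and 4.16% fell in ZS97. Drought-made probe sets were chosen by the difference between these changes, so shares above those of all probe sets follow from the choice and test nothing. Of the 422 higher in ZS97, 224 (53.1%) rose in ZS97 with no call in IRAT109, while 52 (12.3%) fell in IRAT109 with no call in ZS97. Both genotypes rose for 41 and 79 probe sets, and both fell for 41 and 23. Most drought-made differences were present earlier in the drying, since 52.3% were called the same way at D1 and 79.6% at D2. Of all probe sets, 5.53% and 6.65% were called there in either direction. Another 129 were called the same way at neither D1 nor D2, among them HSP26.7, which was called the other way there. A drought-made probe set may still differ by less than 2-fold at D0. With a D0 difference under 0.5 required, 233 were higher in IRAT109 and 338 in ZS97.

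Of 18 probe sets for diterpenoid phytoalexin synthesis, 6 were higher in IRAT109 at D3 and 2 in ZS97 (44.4%, beside 5.6% of all probe sets). Their median difference was 0.16 beside -0.003 over all probe sets, and 5 of the 6 were drought-made. This list and those below hold only probe sets with a given name, of which 7.75% were called at D3. Members and lists were chosen with earlier results of these data known, so these shares describe the lists and test nothing. CPS2 (LOC9266189), the cyclase that makes the ent-copalyl diphosphate precursor of phytoalexins, read 296.8 and 411.8 in IRAT109 and 23.1 and 30.5 in ZS97 at D3. At D0 its arrays overlapped, with 639.2 and 503.6 in IRAT109 and 556.7 and 496.4 in ZS97. The CPS2 difference was 3.10 ± 0.18 at D3 (limma adjusted p = 3.02e-08) and 0.11 ± 0.18 at D0. CYP701A8 (LOC4341343), a P450 related to kaurene oxidase, read 1767.5 and 1802.2 in IRAT109 and 124.2 and 122.4 in ZS97 at D3. Its D3 difference was 3.69 ± 0.089 and its D0 difference 0.74 ± 0.089. KSL5 (LOC4329728), a diterpene synthase, differed by 2.66 ± 0.11 at D3 and 0.75 at D0.

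DXPS (LOC4342614) encodes 1-deoxy-D-xylulose 5-phosphate synthase, which feeds the plastid isoprenoid pathway upstream of the diterpenoids. Its intensity was 438.5 and 520.6 in the IRAT109 arrays at D3 and 21.4 and 23 in the ZS97 arrays, against 562.9 and 542.2 and 296.5 and 290.4 at D0. The groups did not overlap at either stage, and the ZS97 signal had already dropped to 21.1 and 21.2 at D1. The D3 difference was 3.69 ± 0.092 (SE, n = 2 per group, limma adjusted p = 6.52e-12), and it had changed by 2.82 ± 0.13 from D0. DXPS was the only one called of 10 probe sets for plastid isoprenoid and carotenoid entry enzymes (10%), whose median difference was -0.20. Over all probe sets the called share was 5.6%.

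Other diterpenoid genes fell into other classes. CYP71Z6 (LOC4329725), a P450 of phytoalexin synthesis, had a reversed difference. It stayed at 362.8 to 432.0 in all 4 IRAT109 arrays of D0 and D3, while in ZS97 it went from 1335.3 and 1041.8 at D0 to 49.6 and 45.4 at D3. That drop in ZS97 was there at D1 (111.6 and 88.2), as for CPS2, CYP701A8 and KSL5. The CYP71Z6 difference turned from -1.57 ± 0.13 to 2.75 ± 0.13, with a called change (limma adjusted p = 1.24e-08). KSL7 (LOC4329724), a diterpene synthase that makes the phytocassane precursor, was higher in ZS97 at both stages. It read 24.5 and 15.8 in IRAT109 and 665.8 and 733.2 in ZS97 at D3, a difference of -4.32 ± 0.12 that had not changed by a called amount from -3.95 at D0. CPS4, CYP76M7 and OsMAS of the diterpenoid list were lost differences, higher in IRAT109 at D0 by 1.83, 1.26 and 1.73 and at 0.13, -0.03 and 0.19 at D3.

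**Figure D3:**
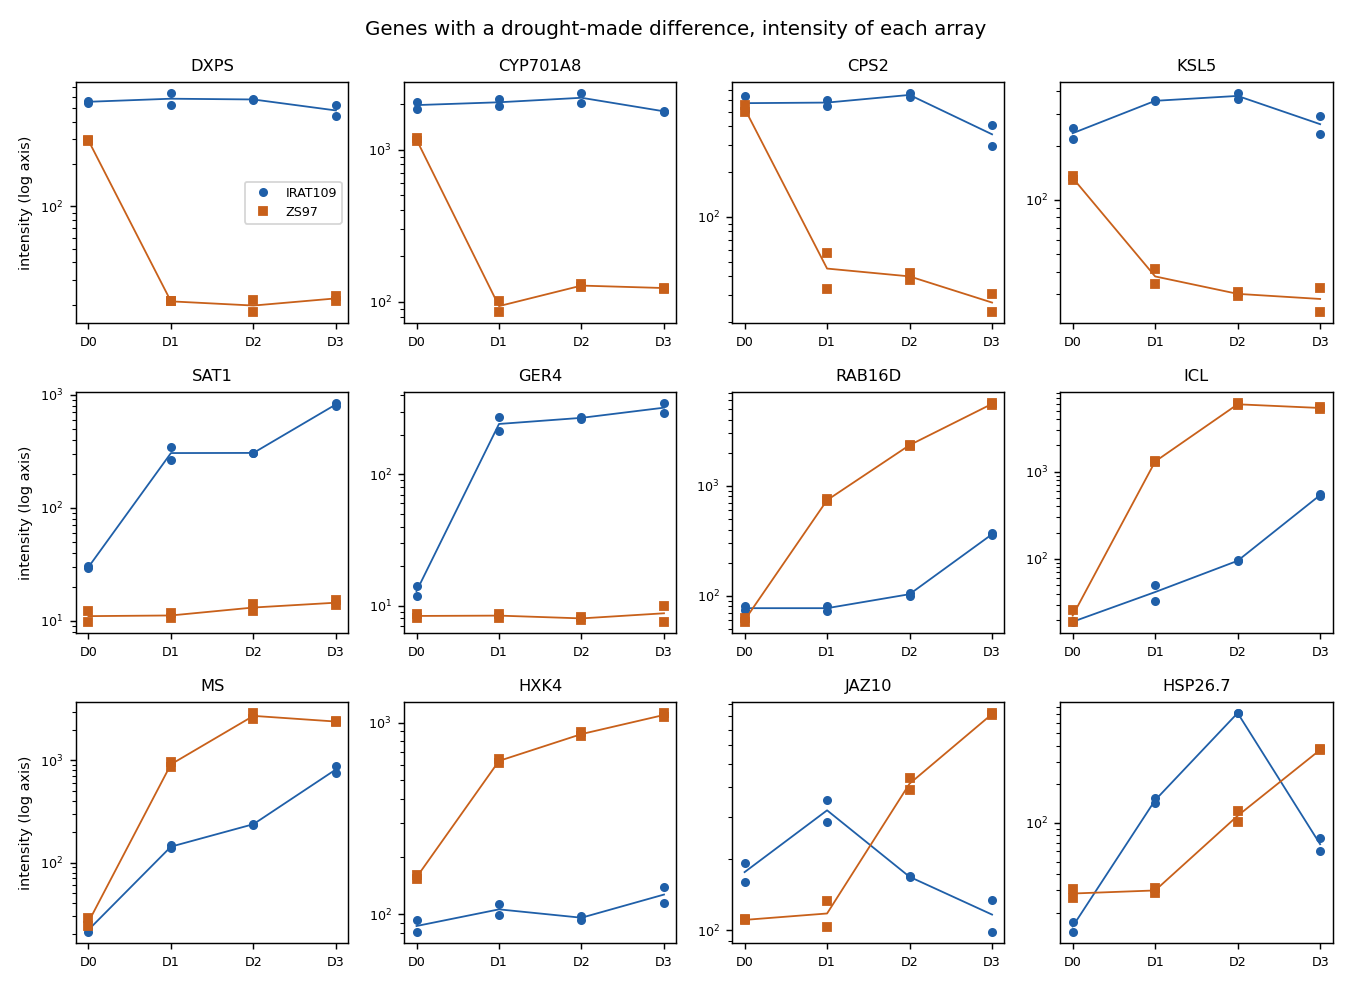
Intensity on a log axis at D0, D1, D2 and D3 for 12 genes with a drought-made difference, with 1 point per array (blue circles IRAT109, orange squares ZS97) and lines through the means of 2 arrays. DXPS, CYP701A8, CPS2 and KSL5 dropped in ZS97 at D1, SAT1 and GER4 rose in IRAT109, and RAB16D, ICL, MS and HXK4 rose more in ZS97.

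Some of the widest drought-made differences toward IRAT109 among named genes came from a rise in that genotype alone. SAT1 (LOC4324655) read 797.0 and 840.7 in IRAT109 and 13.6 and 15.2 in ZS97 at D3, from 29.3 and 30.2 and 9.7 and 12.2 at D0. The D3 difference was 4.78 ± 0.098, and the ZS97 arrays stayed below 16 at both stages, so the constant of 16 sets its size. A second probe set of SAT1 was not called, at -0.21. GER4 (LOC4327911) read 347.9 and 294.5 in IRAT109 and 7.5 and 10 in ZS97, a difference of 3.77 ± 0.10 with the same limit. ASMT (LOC4346795), named for an acetylserotonin methyltransferase of melatonin synthesis, read 169.8 and 208.7 in IRAT109 and 22.3 and 22.2 in ZS97 at D3. At D0 ASMT lay between 17.3 and 25.4 in all 4 arrays.

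Pi21 (LOC4335725), a blast resistance locus that encodes a proline-rich protein, fell in both genotypes and fell further in ZS97. Its brighter D0 probe set went from 1730.6 and 1811.6 to 254.5 and 233.3 in IRAT109 and from 1987.7 and 1856.2 to 28.2 and 16.3 in ZS97. The D3 difference was 2.78 ± 0.13 in this probe set and 1.63 ± 0.076 in another. NR1 (LOC4345795), a nitrate reductase, read 629.9 and 854.2 in IRAT109 and 292.8 and 280.5 in ZS97 at D3, with a difference of 1.31 ± 0.14 after -0.49 at D0, while its other probe set was not called (0.04). LHCP (LOC4324599), a light-harvesting protein, fell in both genotypes, from 13824.8 and 13391.6 to 4271.9 and 4643.8 in IRAT109 and from 11533.1 and 11757.3 to 1598.1 and 1547.9 in ZS97. Its D3 difference was 1.49 ± 0.087, and a second probe set was not called, at 0.97. It was the only called probe set of 24 for light harvesting, Rubisco and chlorophyll synthesis at D3 (4.17%, below the 5.6% of all probe sets).

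A dehydrin gene and a glyoxylate cycle gene had the largest drought-made differences toward ZS97 among named genes. RAB16D (LOC4350451), a dehydrin induced by abscisic acid, read 355.0 and 370.7 in IRAT109 and 5650.5 and 5477.8 in ZS97 at D3. At D0 it read 73.9 and 80.5 in IRAT109 and 57.7 and 62.3 in ZS97. RAB16D rose in both genotypes, by 2.02 in IRAT109 and 6.20 in ZS97 on the log2 scale, and the D3 difference was -3.88 ± 0.063 (limma adjusted p = 1.85e-13). The other called member among 13 probe sets for LEA proteins and dehydrins went the other way. It was rab25 (LOC4326935), at 175.8 and 215.2 in IRAT109 and 81.0 and 63.7 in ZS97, with a difference of 1.26 ± 0.11. With a constant of 64 neither this difference (0.93) nor its change (0.95) was called.

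The 2 measured genes of the glyoxylate cycle, which turns the products of fat breakdown into sugar precursors, were both higher in ZS97. Of all probe sets, 2.66% were higher in ZS97 at D3. ICL (LOC4343441), isocitrate lyase, read 549.0 and 529.8 in IRAT109 and 5507.4 and 5237.1 in ZS97 at D3, from 18.9 to 25.9 in all 4 arrays of D0. Its D3 difference was -3.28 ± 0.11, and at D2 it had been -5.74, with 96.7 and 93.8 in IRAT109. MS (LOC9268154), malate synthase, read 751.1 and 881.3 in IRAT109 and 2445.6 and 2351.6 in ZS97, a difference of -1.54 ± 0.092. Both genes rose in both genotypes, and for each the gap was smaller at D3 than at D2.

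HXK4, SWEET2A, ITPK4, LOGL3, catA and HSP26.7 also had drought-made differences toward ZS97. HXK4 (LOC4326776), a hexokinase that phosphorylates glucose, stayed at 81.0 to 138.8 in the IRAT109 arrays of D0 and D3 and went from 159.5 and 152.5 to 1070.1 and 1123.5 in ZS97. SWEET2A (LOC4326868), a sugar transporter, read 159.6 and 167.8 in IRAT109 and 990.1 and 909.6 in ZS97 at D3. The D3 differences of HXK4 and SWEET2A were -2.97 ± 0.086 and -2.43 ± 0.071, and at D0 both had been higher in ZS97 by less than 2-fold (-0.74 and -0.67), with no overlap of the arrays. ITPK4 (LOC4329322), an inositol phosphate kinase, read 42.0 and 36.0 in IRAT109 and 449.6 and 440.1 in ZS97, a difference of -3.07 ± 0.11. LOGL3 (LOC4331344), of the family that releases active cytokinins, fell in IRAT109 from 894.0 and 794.8 to 298.2 and 286.6 and read 1256.2 and 1248.0 in ZS97 at D3. catA (LOC4328073), a catalase, fell in both genotypes to 875.9 and 856.1 in IRAT109 and 1853.8 and 1825.3 in ZS97, a difference of -1.07 ± 0.065 that was -0.98 and not called under quantile normalization. The other probe sets of catA were not called either, at -0.51 and -0.52. HSP26.7 (LOC4332237), a small heat shock protein, changed sides during the drying. It was higher in IRAT109 by 1.86 at D1 and 2.50 at D2 and higher in ZS97 by 2.20 ± 0.10 at D3, with 60.4 and 76.3 in IRAT109 and 374.1 and 367.1 in ZS97.

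Of 42 probe sets for jasmonate synthesis and JAZ repressors, 5 were higher in ZS97 at D3 and 0 in IRAT109, with a median difference of -0.08. The 5 are 11.9% of the list, beside 5.6% of all probe sets and 7.75% of those with a given name. They belong to OPR1, an oxophytodienoate reductase with a constant difference (-1.47), and to 4 JAZ genes, whose proteins repress jasmonate responses. JAZ10 (LOC4331834) read 98.4 and 134.4 in IRAT109 and 805.3 and 822.3 in ZS97, a difference of -2.66 ± 0.14 after 0.59 at D0. A second probe set of JAZ10 was not called at D3, at -0.91. JAZ13 (LOC4348531) was reversed, from 60.3 and 39.9 in IRAT109 and 14.2 and 10.2 in ZS97 at D0 to 24.3 and 53.9 and 199.9 and 206.4 at D3. JAZ11 (LOC4331833) and JAZ8 (LOC4347164) differed by -1.52 ± 0.076 and -1.48 ± 0.088 at D3. JAZ11 had risen in ZS97 (1.59), whereas JAZ8 had fallen in IRAT109 (-1.23) and changed by 0.03 in ZS97. The change of the JAZ8 difference, -1.25, was not called with a constant of 64 (-0.85). At D1 JAZ10 was still higher in IRAT109, by 1.33.

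Chlorophyll breakdown genes were higher in ZS97 at D3, while most of them were unresolved because their change from D0 stayed under 2-fold. SGR (LOC4347672), which removes magnesium from chlorophyll, read 2872.8 and 3054.4 in IRAT109 and 6580.5 and 6890.5 in ZS97 at D3 in its probe set for several transcripts. It had risen in both genotypes, by 3.05 and 3.86 on the log2 scale. NYC1 (LOC4327178) and NOL (LOC4333604), the subunits of chlorophyll b reductase, differed by -1.21 ± 0.081 and -1.36 ± 0.071. The differences of these SGR, NYC1 and NOL probe sets had changed by -0.81, -0.69 and -0.98 from D0, each with a limma adjusted p under 0.05. Of 6 probe sets in this list, from 4 genes, 5 were higher in ZS97 (83.3%, beside 5.6% of all), with a median of -1.19. The 5 belong to SGR and NOL, with 2 each, and NYC1. Of the 5, 1 was drought-made, another SGR probe set. At D2 the differences of SGR, NYC1 and NOL had been -3.22, -1.55 and -1.88. Of 7 probe sets for proline synthesis and breakdown, 2 were higher in ZS97 (28.6%, beside 5.6% of all) and the median was -0.21. P5CS2 (LOC4324853), which starts proline synthesis, and OAT (LOC4333554), ornithine aminotransferase, were higher in ZS97 by 1.16 ± 0.076 and 1.04 ± 0.087, the latter not called without replicate 2 of ZS97 at D3 (-0.97) or under quantile normalization (-0.99). Both had risen in both genotypes. Their differences had changed by -0.94 and -0.64 from D0, under 2-fold but with a limma adjusted p under 0.05. The other 3 probe sets of P5CS2 were not called and lay between -0.04 and 0.34, and the other one of OAT was not called at -0.88.

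Of 31 probe sets for aquaporins, which conduct water across membranes, 6 were higher in IRAT109 and 1 in ZS97, with a median of 0.22. The rest were not called. The called share was 22.6%, beside 5.6% of all probe sets and 7.75% of those with a given name. TIP1-1 (LOC4331608), a channel of the vacuole membrane, read 1206.0 and 1232.1 in IRAT109 and 444.5 and 484.1 in ZS97 at D3 and had fallen in both. Its D3 difference was 1.36 ± 0.065, and its change of 1.02 ± 0.091 lay at the threshold. The change was not called without replicate 1 of IRAT109 at D0 (0.96), replicate 2 of ZS97 at D0 (0.996) or replicate 1 of ZS97 at D3 (0.97), or with a constant of 64 (0.95). A second TIP1-1 probe set, also among the 6, was drought-made at 1.34 ± 0.063 after 0.22 at D0, with a change of 1.12. PIP2-1 (LOC4343122), a plasma membrane channel, differed by 1.54 ± 0.14 and TIP1-2 (LOC4324303) by 1.34 ± 0.081, both unresolved. The other 2 probe sets annotated to PIP2-1 alone were not called at D3, at 0.13 and 0.003, and had read -0.64 and -0.63 at D0, opposite to the 0.98 of the called one. PIP1-1 and PIP2-7 were drought-made, at 1.14 and 1.12. The called probe set toward ZS97 belongs to Lsi6, a silicon channel, at -1.47.

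**Figure D4:**
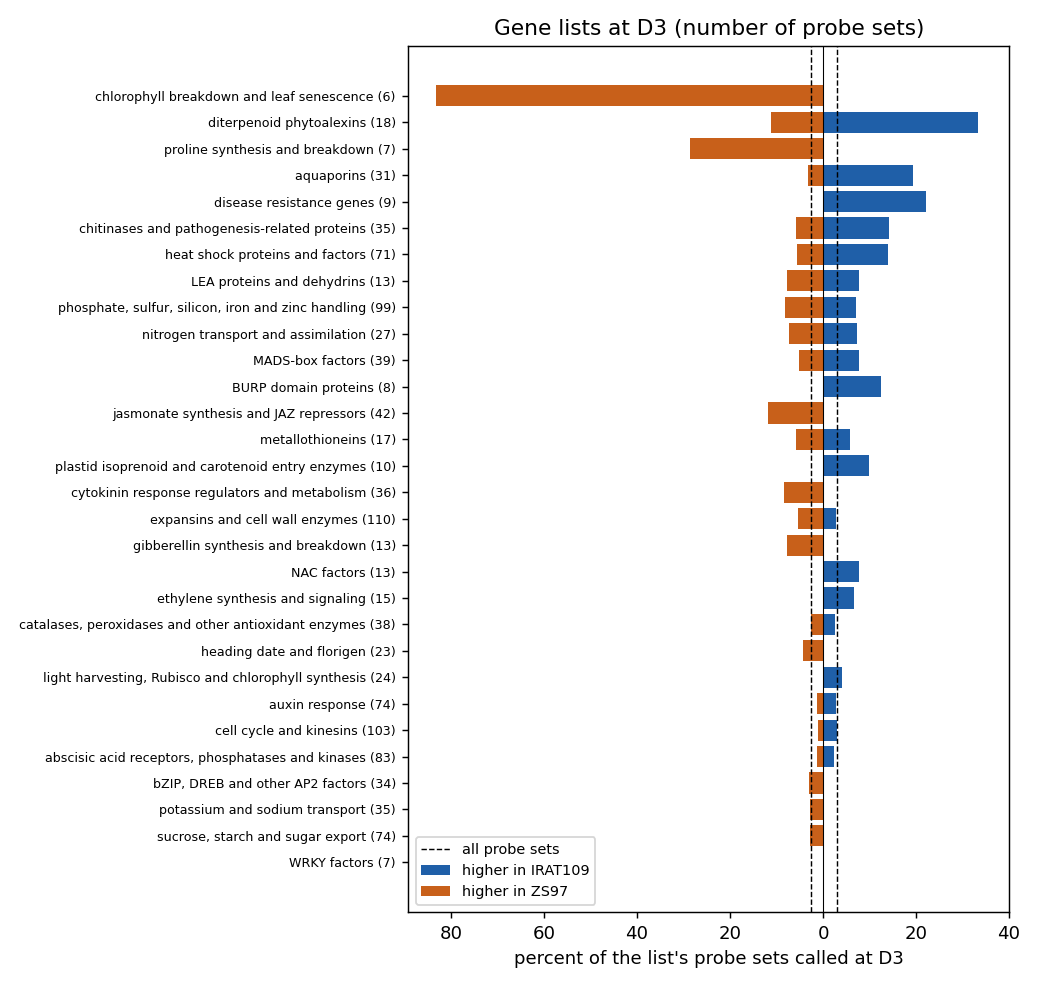
Percent of the probe sets of each gene list called at D3, to the right in blue where IRAT109 was higher and to the left in orange where ZS97 was higher, with the number of probe sets in brackets and dashed lines at the share of all probe sets (2.94% and 2.66%). Lists with 5 or more probe sets are drawn. They were chosen with earlier results of these data known. Of probe sets with a given name, 7.75% were called in either direction. Chlorophyll breakdown reaches 83.3% toward ZS97 and diterpenoid phytoalexins 44.4% over both directions, with lists of 6 and 18 probe sets. These belong to 4 and 16 genes, so a gene can count more than once.

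Several lists tied to drought lay near or below the 5.6% of all probe sets and the 7.75% of those with a given name. Among 83 probe sets for abscisic acid receptors, phosphatases and kinases, 2 were higher in IRAT109 and 1 in ZS97 (3.61%). Among 34 for bZIP, DREB and other AP2 factors the single call was toward ZS97 (2.94%). Potassium and sodium transport had 1 call among 35 probe sets and sucrose, starch and sugar export 2 among 74. None of 7 WRKY probe sets was called at D3, and 2 had been higher in IRAT109 at D0.

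Widened differences combined a gap at D0 with a further one under drought. Cht4 (LOC4336263), a chitinase, read 1975.1 and 1372.7 in IRAT109 and 36.9 and 14.9 in ZS97 at D3, from 94.1 and 76.7 and 12.5 and 9.8 at D0. Its difference went from 1.90 to 5.36 ± 0.21, but ZS97 lay below 16 in both D0 arrays and in 1 D3 array, so its size depends on the constant of 16. Cht11 (LOC4331519), also a chitinase, fell in both genotypes, to 2202.3 and 2300.0 in IRAT109 and to 207.4 and 214.8 in ZS97, and its difference went from 1.05 to 3.32 ± 0.067. HSP16.9B (LOC4325698), a small heat shock protein, read 1587.8 and 1404.7 in IRAT109 and 39.4 and 47.0 in ZS97 at D3, with a difference of 4.68 ± 0.11 after 1.79 at D0, where ZS97 lay below 16 (13.9 and 13.1). OsPP2C61 (LOC4342246), a protein phosphatase, differed by 2.41 ± 0.078 after 1.06, a change that a constant of 64 left uncalled (0.94). Toward ZS97, GH3.2 (LOC4326893), which conjugates auxin to amino acids, differed by -3.04 ± 0.11 after -1.56, and the beta-glucosidase gene BGLU22 (LOC4338560) by -2.98 ± 0.086 after -1.72. In the list of 71 probe sets for heat shock proteins and factors, 10 were higher in IRAT109 and 4 in ZS97, beside 10 and 2 at D0. The D3 share was 19.7%, beside 5.6% of all probe sets and 7.75% of those with a given name.

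Among the 27 reversed differences, 20 ended higher in ZS97 and 7 higher in IRAT109. salT (LOC4326471), a salt-induced lectin gene, read 159.9 and 168.3 in IRAT109 and 29.3 and 54.4 in ZS97 at D0, and 293.3 and 416.2 and 5920.6 and 5674.2 at D3. The groups did not overlap at either stage, with the order turned. Its difference went from 1.67 ± 0.17 to -3.99 ± 0.17, and it was already on the ZS97 side at D1 (-1.14). ERF31 (LOC4347618), an ethylene response factor, went from 1.32 to -1.58 ± 0.17. The calcium sensor gene CBL9 (LOC9269084) ended at -1.01 ± 0.13 and the kinase gene CIPK17 (LOC4337736) at 1.03 ± 0.076, close to the threshold. The D3 call of CBL9 was lost without replicate 1 of IRAT109 (-0.92) or of ZS97 (-0.91) at D3, and that of CIPK17 without replicate 1 of IRAT109 (0.92) or replicate 2 of ZS97 (0.98). The changes of both genes, -2.83 ± 0.18 and 2.20 ± 0.11, were called in those settings too. A second CBL9 probe set was called at D3 at -1.81 ± 0.098, with a change of -2.79. Its D0 difference of 0.98 was under 2-fold, so it was drought-made and not reversed.

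Constant differences included Hd1 and sd1, each the only probe set called at D3 in its list. These were 1 of 23 for heading date and florigen (4.35%) and 1 of 13 for gibberellin synthesis and breakdown (7.69%). Of all probe sets 5.6% were called, and of those with a given name 7.75%. Hd1 (LOC4340746), a CONSTANS-like regulator of heading date, read 47.7 and 45.5 in IRAT109 and 391.2 and 409.7 in ZS97 at D3, and 42.4 and 23.8 and 169.0 and 193.4 at D0. Its difference was -2.73 ± 0.15 at D3 and -2.03 at D0. That difference had changed by -0.70, under 2-fold but with a limma adjusted p of 0.0326. sd1 (LOC4325003), the semidwarf gene of gibberellin synthesis, differed by -1.67 ± 0.11 at D3 and -1.70 at D0. MADS26 (LOC4344493), a MADS-box factor, rose in both genotypes, to 1080.9 and 1239.0 in IRAT109 and 156.8 and 155.8 in ZS97, while its difference was 2.77 ± 0.068 at D3 and 2.97 at D0. OsPP2C12 (LOC4328768), a protein phosphatase, kept a difference of -3.62 ± 0.12 after -3.61. ALN (LOC4337428), allantoinase of purine breakdown, fell in both genotypes with a difference of 2.04 ± 0.087 at D3 and 2.35 at D0. AGO18 (LOC4343201), an argonaute protein of antiviral defence, differed by 2.08 ± 0.16 and 2.80. NRAMP4 (LOC4324486), a metal transporter, was higher in ZS97 in each of the 2 constant probe sets, with differences of -1.93 ± 0.081 and -1.64 ± 0.14. VDAC1 (LOC4346851), a mitochondrial porin, and MCM9 (LOC4340503), a helicase, were higher in IRAT109 by 2.75 ± 0.11 and 2.30 ± 0.16 with D0 differences of 3.05 and 2.39.

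**Figure D5:**
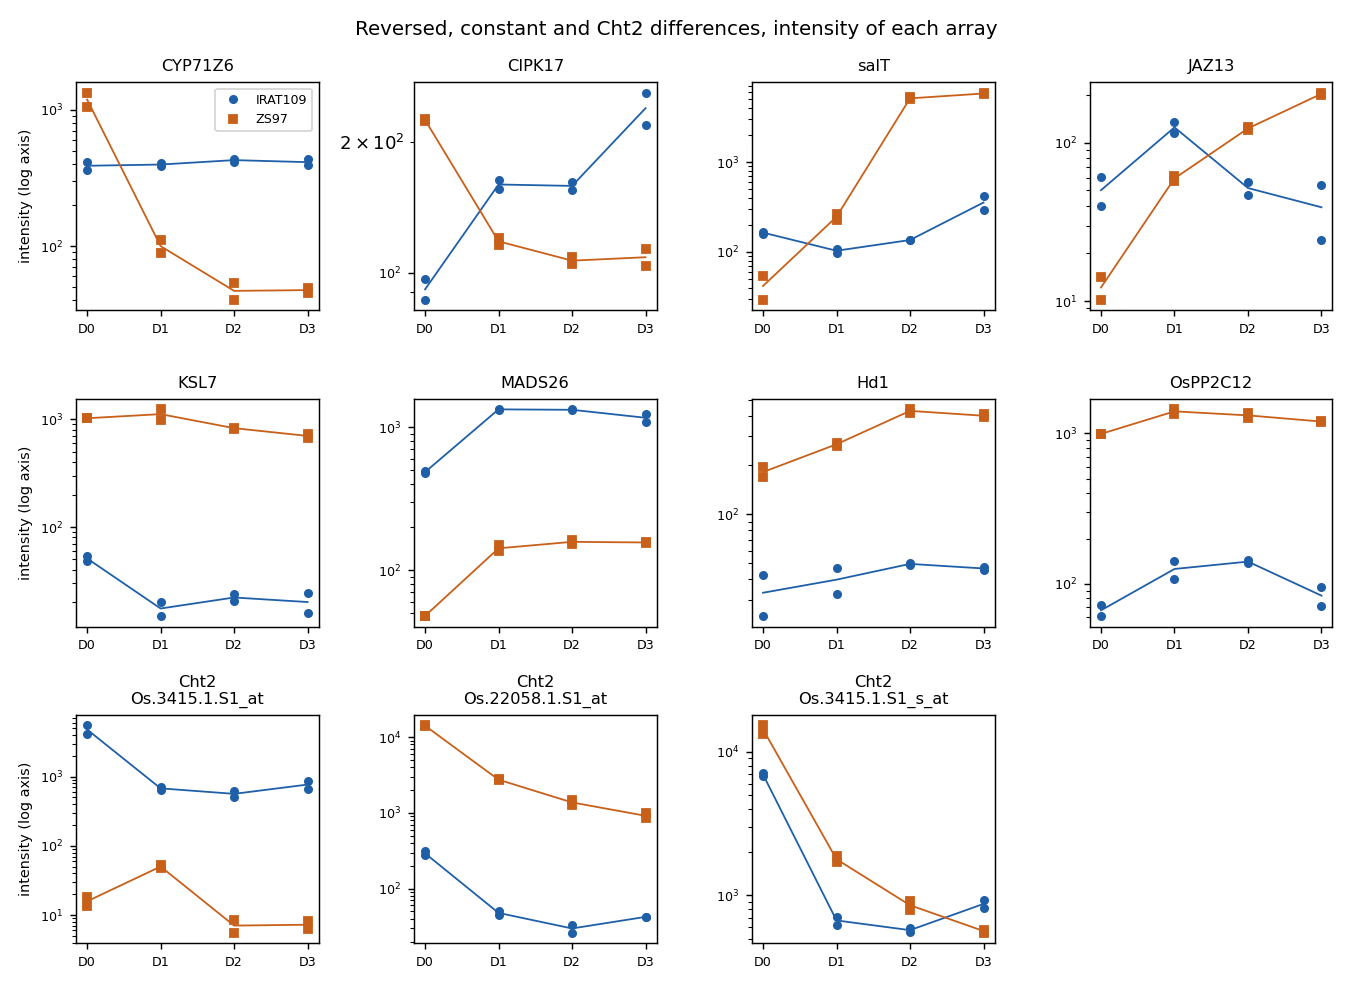
Intensity on a log axis at D0 to D3 for 4 reversed genes (top), 4 constant genes (middle) and 3 probe sets of Cht2 (bottom), with 1 point per array (blue circles IRAT109, orange squares ZS97) and lines through the means of 2 arrays. The lines cross in the top row and stay apart in the middle row, and the first 2 Cht2 probe sets lie in opposite order.

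The probe set decided some differences. Cht2 (LOC4349267), a chitinase, was measured by 3 probe sets. In the first, IRAT109 read 658.9 and 877.4 and ZS97 read 8.3 and 6.2 at D3. In the second, IRAT109 read 42.2 and 42.7 and ZS97 read 983.1 and 847.6. Their D3 differences were 5.06 ± 0.16 and -3.99 ± 0.096, after 7.23 and -5.52 at D0. The third, which can match several transcripts, differed by 0.61 ± 0.095 at D3 and -1.04 at D0. For Cht2 no direction between the genotypes can be given, and the cause was not tested. Other probe sets of AGO18 (0.12), VDAC1 (0.66 and -0.38), MCM9 (0.25) and HSP18.0 (-0.11) and 2 of NRAMP4 (-0.85 and -0.01) were not called at D3, unlike the probe sets of these genes whose values are given. Of 496 genes with 2 or more probe sets and at least 1 D3 call, all probe sets were called the same way for 91, some were called for 393 and 12 were called both ways. Where the gene had another probe set, 52.8% of constant probe sets (151 of 286) and 45.5% of drought-made ones (75 of 165) had another called the same way. An opposite call was found for 15 and 2 of them. The lower genotype lay below an intensity of 16 in both D3 arrays for 20.0% of constant and 6.74% of drought-made probe sets.

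Other D0 differences were lost or narrowed by D3, from either direction. Hd5 (LOC4344784), a heading date factor, read 341.0 and 298.3 in IRAT109 and 15.5 and 15.3 in ZS97 at D0, and 31.0 and 38.3 and 12.2 and 11.7 at D3. Its difference went from 3.42 to 0.85 ± 0.076, still without overlap and under 2-fold, which a constant of 1 would call (1.45). The chitinase gene Cht5 (LOC4336265) went from 3.28 to 0.15 ± 0.13 and BURP16 (LOC4348595), of the BURP domain proteins, from -3.33 to 0.76 ± 0.10, on the other side but under 2-fold. The small heat shock gene HSP16.0 (LOC4340661) went from -3.55 to -0.79 ± 0.25. The ammonium transporter gene AMT3-3 (LOC4329628) narrowed from 2.97 to 1.80 ± 0.12, a change of -1.17 that was not called without replicate 1 of ZS97 at D3 (-0.99) or with a constant of 1 (-0.60). HSP18.0 (LOC4325342) narrowed from 4.47 to 2.0 ± 0.068 in its brighter probe set and was constant in another, at 2.36 after 2.85.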

How the data were processed

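The authors deposited 1 signal intensity for each probe set on each array, on a linear scale. The labels name MAS5, with no version, and the paper's methods name the robust multiarray average, and which made the values was not settled. No raw scans were used and no array was rescaled. Values were analysed as log2(intensity + 16), with no filter. One model with 8 group means was fitted to all 16 arrays with limma 3.58.1 in R 4.3.3 (8 residual and 4.28 prior degrees of freedom, median residual SD 0.083). P-values therefore measure the spread between 2 arrays per group, and the number of arrays limits the precision. The median SE of a D3 difference was 0.08. D3 calls were sorted by the D0 call and the interaction call. The calling steps were run on simulated data with normal noise, where the genotypes differed only by changes of 1.2 to 3 added to IRAT109 at D3. At D3, 48 of 50 changes of 1.2 and 0 unchanged probe sets were called. The changes lay past the threshold and the noise was small, so this checks the steps only. Sequence differences under the probes and differences at D0 were not simulated. One gene symbol was given for 22436 probe sets, and 3186 had a given name, taken from RefSeq synonyms because most symbols are locus numbers. Named genes are the widest called differences of each class and up to 4 called members per list with arrays of the genotypes not overlapping at D3, genes whose difference was lost, and further Cht2 probe sets chosen after their values were seen. Members and lists were chosen with earlier results of these data known. The settings varied were the constant (1 or 64), the scaling (quantiles or medians), a minimum intensity of 64, the replicate number as a block, fewer arrays, an intensity trend, other folds, rank products and 1 probe set per gene.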

Additional observations from a re-analysis of the deposited data

Results flagged for a closer look

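The drought changes of the genotypes differed, by the interaction test (limma, change in IRAT109 minus change in ZS97 from D0 to D3, log2), for 745 probe sets toward IRAT109 and 1213 toward ZS97 and for each gene that follows.

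Toward IRAT109, the change of the difference was 4.32 for CYP71Z6, 4.09 for BURP16, 4.01 for SAT1, 3.52 for GER4, 3.46 for Cht4, 2.99 for CPS2 and 2.95 for CYP701A8. It was 2.90 and 1.66 for the probe sets of Pi21, 2.88 for HSP16.9B, 2.82 for DXPS, 2.76 for HSP16.0, 2.66 for ASMT, 2.27 for Cht11 and 2.20 for CIPK17. Smaller changes were 1.90 for KSL5, 1.80 for NR1, 1.65 and 1.53 for the third and second Cht2 probe set, 1.35 for OsPP2C61, 1.33 for rab25, 1.27 for LHCP and 1.02 for TIP1-1.

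Toward ZS97, the change was -5.66 for salT, -4.17 for RAB16D, -3.26 for JAZ10, -3.26 for JAZ13, -3.15 for ICL, -3.13 for Cht5 and -2.91 for ERF31. It was -2.83 for CBL9, -2.74 for ITPK4, -2.56 for Hd5, -2.47 for the brighter HSP18.0 probe set, -2.22 for HXK4, -2.17 for the first Cht2 probe set and -2.16 for LOGL3. Smaller changes were -1.75 for SWEET2A, -1.72 for HSP26.7, -1.48 for GH3.2, -1.39 for MS, -1.37 for JAZ11, -1.27 for BGLU22, -1.25 for JAZ8, -1.17 for AMT3-3 and -1.10 for catA. With 2 arrays per group, no array was tested for standing apart from its group.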

How the results depend on the processing

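With a constant of 64 the D3 count higher in ZS97 was 959, the D0 counts 1145 and 654, the interaction counts 473 and 692, drought-made differences higher in ZS97 272, constant ones 593 and 327 (IRAT109 first, as in each pair here), widened 62, narrowed 56, reversed 14 and lost 348. With a constant of 1, 211 narrowed. A 1.5-fold threshold gave 3161 and 3994 at D3, 3351 and 2448 at D0, 2000 and 3431 for the interaction, 686 and 1308 drought-made, 1342 and 1065 constant, 492 widened, 426 narrowed, 121 reversed and 1331 lost. A 4-fold threshold gave 617 and 406, 667 and 291, 143 and 217, 64 and 71, 408 and 181, 9, 21, 0 and 132 in the same order. With 1 probe set per gene, and thus fewer tested, these were 726 and 774, 777 and 467, 360 and 667, 142 and 258, 360 and 210, 60, 58, 14 and 269. Without 1 of the 8 arrays of D0 and D3, 1594 to 1805 were higher in IRAT109 at D3 and 1443 to 1687 in ZS97, with 266 to 352 and 386 to 513 drought-made. The D3 difference of Cht5, not called, then ran from -0.030 to 0.33.

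Quantile normalization gave 348 and 376 drought-made probe sets, and median centring 275 and 475. No general pairing of the samples by replicate number was seen. Same-numbered arrays deviated together at -0.32 to 0.16 over 28 pairs of groups, median 0.004, which does not exclude a link between some groups. With the replicate number as a block, 1689 and 1527 were called at D3 and 738 and 1211 for the interaction, and no named call changed. Of 152 results for named genes, 125 kept their direction and side of the threshold in every setting other than the fold thresholds. Of the others 21 were not called with a constant of 64. With median centring the D3 call of CIPK17 (0.996) and the change of the first TIP1-1 probe set (0.98) were lost. The D3 call of the reversed CBL9 probe set was lost under quantile normalization (-0.98). Dim signal and the 2-fold threshold limit the calls, and the adjusted p removed no D3 probe set past 2-fold.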
